A study of Mus musculus with 12 samples.

Results

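Interferon-stimulated genes and the genes of the cGAS-STING pathway were followed in the ventricles of mice with a cardiac-specific knockout of Vps13c. The 49 genes were chosen by a list of mouse symbols of sensors, factors, effectors, GTPases and antigen presentation genes, and all 49 had a row among the 21959 gene IDs of the count table and were among the 12384 genes that passed the filter on low counts. Bulk poly-A RNA from ventricle tissue was sequenced from 6 wild-type (WT) mice and 6 Vps13c-cKO mice. All 12 were 7-week-old males on chow diet, and the strain, the Cre driver, the litters, and whether the WT mice carried floxed or driver alleles are not given in the labels. Other cells of the ventricle are expected to keep the gene in a cardiac-specific knockout. Each library held between 12484523 and 15562942 counts assigned to genes.

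VPS13C is a bridge-like protein that transfers lipids between the endoplasmic reticulum and late endosomes or lysosomes. Its loss in a human cell line has been described to raise cGAS-STING signalling, which is the background of the question followed here. cGAS senses DNA in the cytosol, including mitochondrial DNA, and makes the messenger cGAMP, which binds STING on the endoplasmic reticulum. STING moves to the Golgi, where the kinase TBK1 activates the transcription factor IRF3 and type I interferon genes are switched on. RIG-I and MDA5 sense RNA and reach the same kinase through MAVS. Secreted interferon acts through its receptor, the kinases JAK1 and TYK2 and the factor ISGF3, which holds STAT2 and IRF9 and binds the interferon-stimulated response element (ISRE) in front of interferon-stimulated genes. Type II interferon acts mainly through GAS elements, and the GTPases and antigen presentation genes are known for their response to it.

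The targeted gene was measured first. Vps13c had 54.6, 61.8 and 68.6 CPM (a gene's reads relative to the library's total, scaled by TMM factors) in the lowest, median and highest WT mouse, and 16.3, 18.1 and 20.3 in the Vps13c-cKO mice. The groups did not overlap, and the log2 fold change, here always Vps13c-cKO minus WT, was -1.77 ± 0.06 (SE, n = 6 per group, adjusted p = 4.47e-14). Markers of cardiomyocytes, the defining cell type of ventricle, summed to between 42253 and 49499 CPM in every library. In bulk tissue, fewer cells of a type and less RNA per cell cannot be told apart.

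Of the 49 genes, 7 were higher in the Vps13c-cKO ventricles at an adjusted p under 0.05 by edgeR's quasi-likelihood test, adjusted over all tested genes, and 0 were lower. These 7 are 14.3% of the list, where 5.65% of all tested genes were called higher, 5.1% lower and 10.7% in either direction. The list was chosen with earlier results of these data known, so its shares are a description and no test. At an unadjusted p under 0.05 the list held 12 genes, or 24.5%, against 23.8% of all tested genes, so by that count the list was near the background. The median log2 fold change was 0.07 over the 49 genes and 2.75e-05 over all tested genes, and 33 of 49 values were positive. The 7 genes were Ifit1, Ifit2, Ifit3, Ifit3b, Irf7, Eif2ak2 and Lgals3bp, so that 4 of 7 belong to 1 gene cluster. Groups did not overlap for 3 genes, Ifit2, Ifit3 and Mx1, which are 6.12% of the list. In each, all 6 Vps13c-cKO mice lay above the highest WT mouse, a state that 2.75% of all tested genes reached. Mx1 passed the filter only through the Vps13c-cKO group, so its place in this count is no support for the list. No gene of the list lay below all WT mice in all 6 Vps13c-cKO mice, which 2.18% of all tested genes did.

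**Figure D1:**
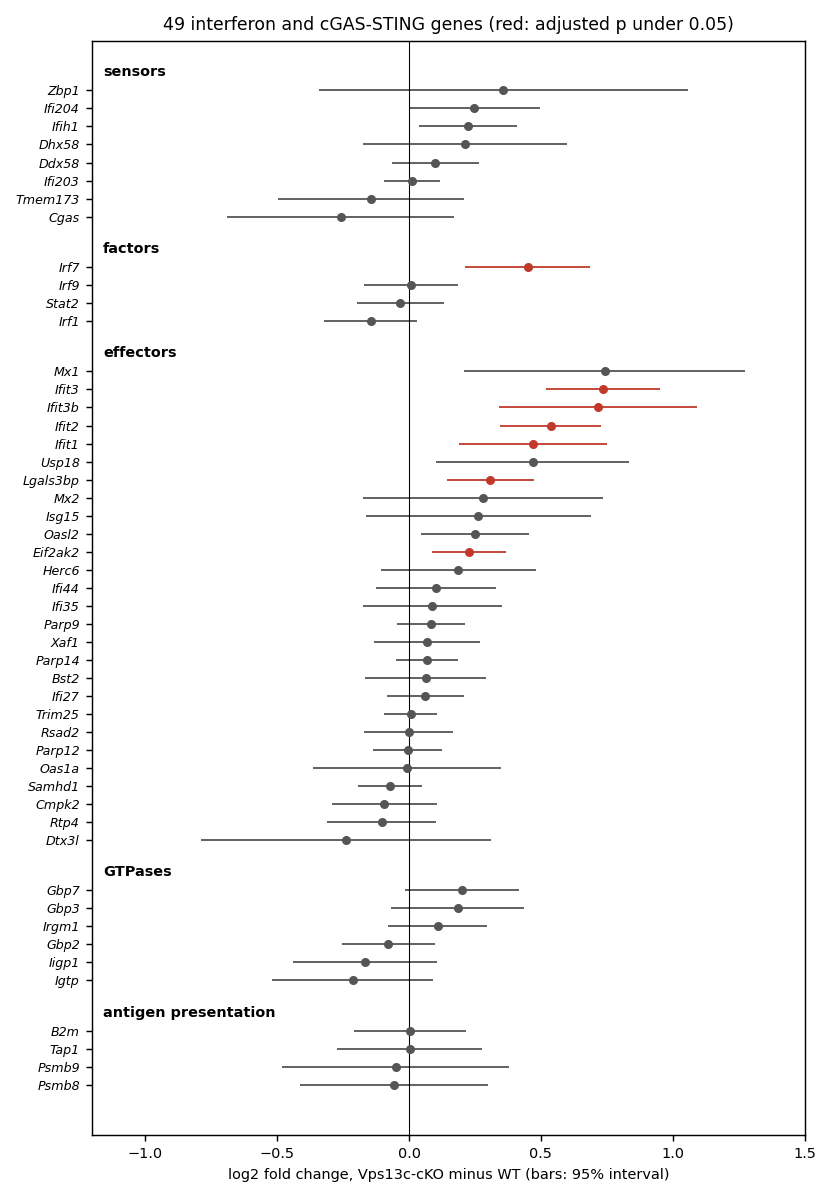
Log2 fold change (Vps13c-cKO minus WT, horizontal axis) of the 49 genes with 95% intervals from 6 mice per group, ordered by type of gene. The 7 genes called higher are marked, Ifit3 lies farthest from 0 among them at 0.73, and 0 genes were called lower.

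The IFIT proteins are effectors that bind viral RNA and block its translation, and their genes lie side by side on chromosome 19. Ifit3 (ENSMUSG00000074896) had 6.86, 8.21 and 10.1 CPM in the lowest, median and highest WT mouse, and 12.3, 14.3 and 15.0 CPM in the Vps13c-cKO mice. Every Vps13c-cKO mouse lay above every WT mouse, and the mean rose from 8.42 ± 1.45 to 14.1 ± 1.01 CPM (SD, n = 6), which is 0.73 ± 0.10 on the log2 scale (adjusted p = 3.05e-05). Ifit2 (ENSMUSG00000045932) ran from 19.6 to 28.8 CPM in WT mice, with a median of 24.1, and from 29.9 to 41.2 CPM in Vps13c-cKO mice, with a median of 34.8. The groups did not overlap here either, with a log2 fold change of 0.54 ± 0.09 (adjusted p = 0.000232).

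Ifit3b (ENSMUSG00000062488) is a close copy of Ifit3. It had 2.42, 3.04 and 3.84 CPM in the lowest, median and highest WT mouse and 3.45, 5.12 and 7.13 CPM in the Vps13c-cKO mice. Of the 6 Vps13c-cKO mice, 5 lay above the highest WT mouse, and the log2 fold change was 0.72 ± 0.17 (adjusted p = 0.00708). Reads that fit both copies can be lost or split by the counting, so the values of Ifit3 and Ifit3b are uncertain to that extent and are not independent of each other. Ifit1 (ENSMUSG00000034459) had 4.83, 5.71 and 8.53 CPM in WT mice and 6.97, 8.58 and 9.68 CPM in Vps13c-cKO mice. Its groups overlapped, with WT mouse 5 at 8.53 CPM, and the log2 fold change was 0.47 ± 0.13 (adjusted p = 0.0178).

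**Figure D2:**
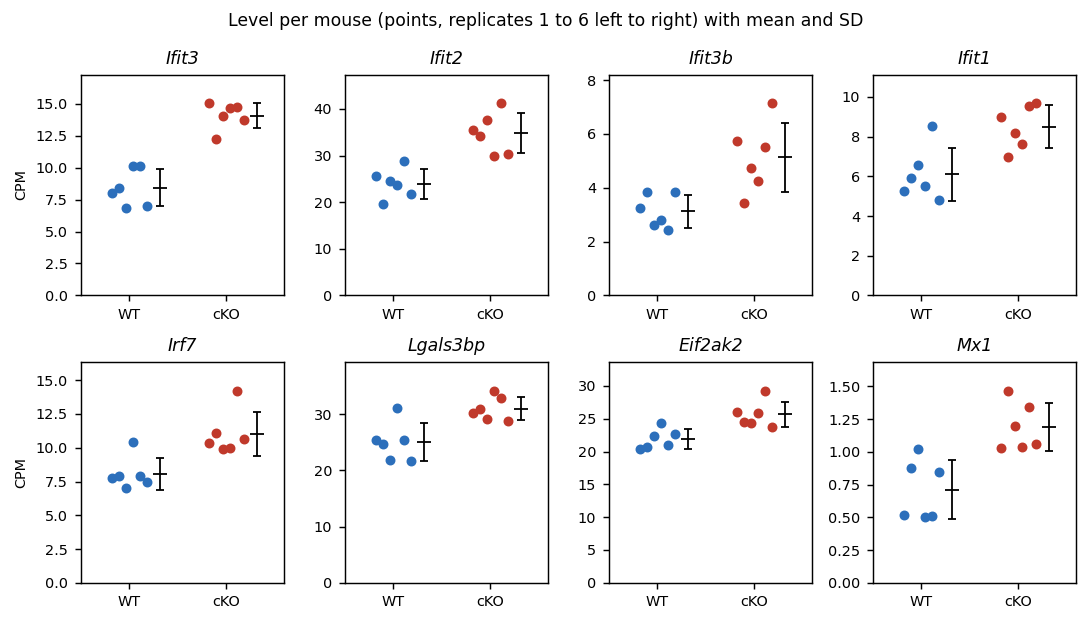
Expression in CPM (vertical axes) in each of 6 WT and 6 Vps13c-cKO ventricles, 1 point per mouse, with the mean and SD of each group. The genes are the 7 called higher and Mx1. For Ifit2, Ifit3 and Mx1 the 6 Vps13c-cKO mice sit above the 6 WT mice, and for the other 5 genes the groups overlap. Mx1 passed the filter on low counts only through the Vps13c-cKO group.

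Not all genes of the cluster followed. Ifit1bl1, which lies between Ifit3 and Ifit3b, had a mean of 4.95 CPM in WT and 5.08 CPM in Vps13c-cKO mice (log2 fold change 0.04 ± 0.11, adjusted p = 0.881). Ifit1bl2, between Ifit3b and Ifit1, had 6.50 and 6.27 CPM (-0.05 ± 0.12, adjusted p = 0.860). Outside the cluster, Lipa, the lysosomal acid lipase gene next to Ifit2, had a log2 fold change of 0.07 ± 0.06 (adjusted p = 0.471). Slc16a12, next to Ifit1, had 0.10 ± 0.14, and Pank1, a pantothenate kinase gene one place further, fell by 0.23 on the log2 scale (SE 0.05, adjusted p = 0.00246). Both uncalled members of the family thus lay between called ones.

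**Figure D3:**
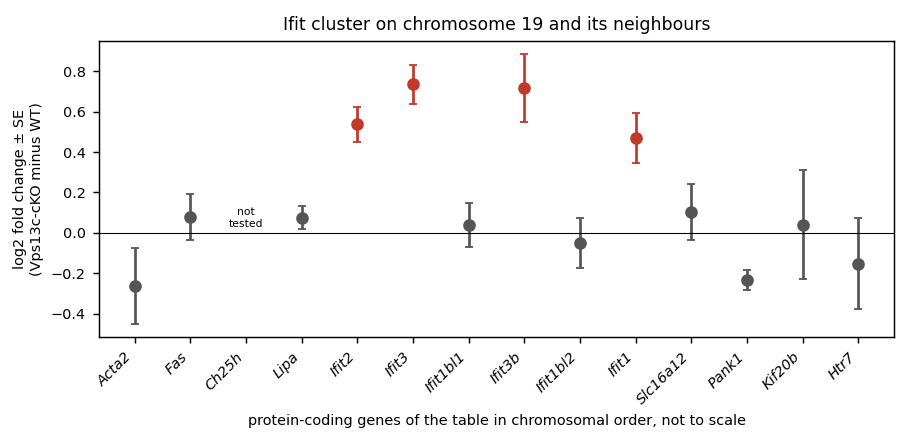
Log2 fold change ± SE (vertical axis, Vps13c-cKO minus WT) of genes on chromosome 19 in their order along the chromosome, without distances. Ifit2, Ifit3, Ifit3b and Ifit1 lie between 0.47 and 0.73, and Ifit1bl1 and Ifit1bl2 at 0.04 and -0.05.

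The sequences around the starts of these genes were read from RefSeq promoter windows, which 37 of the 49 genes had. Each window held 300 bases, 250 before to 50 after the gene start, in build GRCm38.p6. The ISRE was searched on both strands as TTTC, any 2 bases, and TTTC again, and 18 of 37 genes (48.6%) held it, against 3.99% of the 27025 genes with a window in the table and 3.44% of its 32851 windows. Of the 7 genes called higher 4 held it (Ifit1, Ifit3, Ifit3b and Eif2ak2), and of the 30 genes not called 14 held it (46.7%), so the motif was found among called and uncalled genes alike. The stretches that follow hold the matches in capitals, 5′ to 3′ on the gene's strand, for the 4 called genes and for 4 well-known responders that were not called, so that like motifs can be seen beside unlike outcomes. The Eif2ak2 stretch lies after the gene start, with its match beginning at base 19, and the other stretches lie before their starts. A match describes the letters and is not evidence of a bound site.
Ifit1, chr19:34640765-34640833, plus strand: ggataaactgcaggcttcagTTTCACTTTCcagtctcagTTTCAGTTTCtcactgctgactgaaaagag
Ifit3, chr19:34583353-34583436, plus strand: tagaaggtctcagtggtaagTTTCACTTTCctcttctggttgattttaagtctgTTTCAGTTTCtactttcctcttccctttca
Ifit3b, chr19:34607749-34607832, plus strand: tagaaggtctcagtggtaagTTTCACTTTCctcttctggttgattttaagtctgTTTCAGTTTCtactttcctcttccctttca
Eif2ak2, chr17:78882535-78882564, minus strand: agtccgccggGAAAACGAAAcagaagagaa
Isg15, chr4:156200855-156200916, minus strand: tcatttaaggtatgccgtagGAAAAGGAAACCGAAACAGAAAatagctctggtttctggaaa
Oas1a, chr5:120907526-120907565, minus strand: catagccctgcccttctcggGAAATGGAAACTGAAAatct
Igtp, chr11:58199502-58199551, plus strand: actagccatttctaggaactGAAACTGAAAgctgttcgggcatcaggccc
Gbp3, chr3:142559979-142560034, plus strand: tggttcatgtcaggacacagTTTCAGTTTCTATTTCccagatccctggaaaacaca

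The Ifit3 and Ifit3b stretches were identical over 84 of 84 bases. Both were cut around the matches, so this covers a short piece before the starts and does not measure how alike the transcripts are. Ifit1 carried the same pair of 10-base matches, TTTCACTTTC and TTTCAGTTTC, in another spacing. Isg15 had 3 overlapping matches. By type, 3 of 4 sensor genes, 1 of 4 factors, 8 of 20 effectors, 5 of 5 GTPases and 1 of 4 antigen presentation genes with a window held the motif. Ifit2, Irf7 and Lgals3bp were called without these letters in their windows. The GAS motif, searched as TTCNNNGAA, was in 10 of 37 genes, against 9.55% of all genes with a window and 8.3% of all windows. No window was at hand for Tmem173, Dhx58, Zbp1, Ifi204, Usp18, Mx1, Mx2, Ifi27, Rtp4, Parp9, Parp14 and Iigp1.

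Among the transcription factors, Irf7 was the 1 of 4 that was called. IRF7 amplifies the type I interferon response and is itself induced by interferon. Irf7 (ENSMUSG00000025498, chromosome 7) had 7.01, 7.84 and 10.4 CPM in the lowest, median and highest WT mouse and 9.88, 10.5 and 14.2 CPM in the Vps13c-cKO mice. Only the highest WT mouse, number 4, reached into the Vps13c-cKO range, and the log2 fold change was 0.45 ± 0.11 (adjusted p = 0.00758). Its exons share 45 bases, 1.19% of their length, with Phrf1 on the opposite strand, which had a log2 fold change of -0.03 ± 0.06 (adjusted p = 0.815). On the other side lies Cdhr5, a cadherin-family gene that did not pass the filter, with 1 count over the WT and 55 over the Vps13c-cKO mice. Drd4, nearby, had 0 and 15 counts, while Deaf1, a transcription factor gene beside it, was called lower (-0.36 ± 0.11, adjusted p = 0.0378). Sct, between Cdhr5 and Drd4, had 3 and 7 counts. On the Phrf1 side, Rassf7 had 31 and 54 counts and Lmntd2 had 4 and 14, all under the filter. Lrrc56, further along, was tested and had a log2 fold change of 0.02 ± 0.20. Of 955 tested genes on chromosome 7, 18.5% were called in either direction, against 10.7% of all. Whether reads that run between these neighbours bear on Irf7 was not tested.

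The other factors did not change by the test. Stat2, a subunit of ISGF3, had 18.5, 21.2 and 25.5 CPM in WT mice and 19.7, 20.3 and 24.8 CPM in Vps13c-cKO mice (log2 fold change -0.03 ± 0.07, adjusted p = 0.843). Irf1, a factor induced by type II interferon, had 12.8, 14.9 and 17.6 CPM and 12.4, 13.1 and 15.2 CPM (-0.15 ± 0.08, adjusted p = 0.278). The groups overlapped for both. Irf9, the DNA-binding subunit of ISGF3, had a log2 fold change of 0.01 ± 0.08.

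Of 8 sensor genes 0 were called in either direction, and their median log2 fold change was 0.16. Of all tested genes 10.7% were called, so 0 calls among so few genes do not set the sensors apart. Cgas, the DNA sensor, had 1.30, 1.59 and 2.1 CPM in the lowest, median and highest WT mouse and 1.06, 1.39 and 1.71 CPM in the Vps13c-cKO mice. The groups overlapped, and the interval of the log2 fold change ran from -0.69 to 0.17 (adjusted p = 0.458). Its counts were low, between 14 and 33 reads per library. Tmem173, the gene of STING, had 4.17, 4.45 and 5.85 CPM in WT mice and 2.40, 4.27 and 5.65 CPM in Vps13c-cKO mice, with an interval from -0.50 to 0.21 (adjusted p = 0.644). Neither gene was called, and these intervals do not show that the levels were equal.

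The other sensors detect RNA or, in the p200 family, DNA. Ifih1, the gene of MDA5, had 11.2, 13.3 and 15.0 CPM in WT mice and 13.3, 15.3 and 17.1 CPM in Vps13c-cKO mice. Its log2 fold change was 0.22 ± 0.08 with an interval from 0.04 to 0.41, and the adjusted p was 0.0970. Ddx58, the gene of RIG-I, had 16.2, 18.4 and 21.6 CPM and 18.5, 19.1 and 22.7 CPM (0.10 ± 0.07, adjusted p = 0.452). Values of both genes overlapped between the groups. Ifi204 had a log2 fold change of 0.25 ± 0.11 (adjusted p = 0.177), and Ifi203, the sensor gene with the highest mean CPM, had means of 50.7 and 51.1 CPM (0.01 ± 0.05). Dhx58 and Zbp1, a sensor of unusual RNA and DNA helices, had adjusted p-values of 0.504 and 0.545.

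Of the 27 effector genes 6 were called higher (22.2%), where 5.65% of all tested genes were. A positive log2 fold change was found in 20 of 27, and the median was 0.09, against 2.75e-05 over all tested genes. The list was chosen with earlier results known, so this share is a description and no test. Of the 6 called genes 4 were the Ifit genes of the same cluster, and Ifit3 and Ifit3b are not independent of each other. The others were Eif2ak2 and Lgals3bp. Eif2ak2 (ENSMUSG00000024079, chromosome 17), the gene of PKR, a kinase that stops translation on sensing double-stranded RNA, had 20.5, 21.7 and 24.3 CPM in WT mice and 23.8, 25.2 and 29.3 CPM in Vps13c-cKO mice. It lay above the highest WT mouse in 5 of 6 Vps13c-cKO mice, at a log2 fold change of 0.23 ± 0.06 (adjusted p = 0.0209). This call ended when WT mouse 2 or Vps13c-cKO mouse 5 was left out, with adjusted p-values of 0.0530 and 0.0600. Lgals3bp (ENSMUSG00000033880, chromosome 11), a secreted glycoprotein that binds galectins, had 21.7, 25.0 and 31.1 CPM and 28.8, 30.5 and 34.2 CPM. The groups overlapped, and the log2 fold change was 0.31 ± 0.07 (adjusted p = 0.00865).

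Just inside the threshold lay Ifit1 and Eif2ak2, at adjusted p-values of 0.0178 and 0.0209, and just outside lay Mx1 and Usp18, at 0.0503 and 0.0725. Mx1, a dynamin-like GTPase against influenza-type viruses, had 0.506, 0.681 and 1.02 CPM in WT mice and 1.03, 1.13 and 1.47 CPM in Vps13c-cKO mice. Its groups did not overlap, the log2 fold change was 0.74 ± 0.24, and it was called without WT mouse 3 (0.87, adjusted p = 0.0324). The other 47 genes besides Mx1 and Zbp1 lay above the filter's level in all 12 mice, and Mx1 passed the filter only through the Vps13c-cKO group, so its difference is no support for the list. Usp18, which removes ISG15 from proteins and dampens the interferon receptor, had 1.75, 2.67 and 3.07 CPM and 2.88, 3.38 and 4.25 CPM (0.47 ± 0.16).

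Other well-known effectors were not called. Isg15, a ubiquitin-like protein joined to other proteins, had 1.68, 2.49 and 2.55 CPM in WT mice and 1.68, 2.88 and 3.72 CPM in Vps13c-cKO mice, with an interval of the log2 fold change from -0.16 to 0.69 (adjusted p = 0.445). The lowest mice of both groups were at the same level. Bst2, the gene of tetherin, which holds budding virus at the cell surface, had 7.74, 9.18 and 11.7 CPM and 8.59, 9.79 and 10.8 CPM (0.06 ± 0.10, adjusted p = 0.776). Oasl2 and Rsad2 were picked after their values were seen. Oasl2, of the oligoadenylate synthetase family, had a log2 fold change of 0.25 ± 0.09 (adjusted p = 0.0907), and was called without WT mouse 4 or Vps13c-cKO mouse 2 (adjusted p down to 0.0320). Rsad2, the gene of viperin, had an adjusted p of 0.993. Trim25, a ubiquitin ligase that acts on RIG-I and the effector with the highest mean CPM, had means of 63.4 and 63.7 CPM (0.01 ± 0.05, adjusted p = 0.962).

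Of the 6 GTPase genes and the 4 antigen presentation genes 0 were called, with median log2 fold changes of 0.01 and -0.02. At the 10.7% of all tested genes called in either direction, few calls are expected among so few genes. Gbp7, a guanylate-binding protein that attacks the vacuoles of pathogens, had 17.5, 22.1 and 29.5 CPM in WT mice and 21.7, 25.8 and 30.9 CPM in Vps13c-cKO mice (0.20 ± 0.10, adjusted p = 0.210). Without WT mouse 5 the log2 fold change was 0.30 and the gene was called (adjusted p = 0.0266). Gbp3 had 11.4, 16.3 and 20.5 CPM and 15.4, 18.7 and 20.8 CPM (0.18 ± 0.11, adjusted p = 0.350). Iigp1, an immunity-related GTPase, had 47.1, 62.3 and 95.5 CPM and 49.1, 55.5 and 70.2 CPM (-0.17 ± 0.12, adjusted p = 0.452). WT mouse 5 held its highest value, and without that mouse the log2 fold change was -0.01.

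The log2 fold changes of the 4 antigen presentation genes lay between -0.06 and 0.004. B2m, the light chain of MHC class I, had 123, 167 and 209 CPM in the lowest, median and highest WT mouse and 146, 160 and 185 CPM in the Vps13c-cKO mice, with an interval from -0.21 to 0.21 (adjusted p = 0.988). Psmb8, an immunoproteasome subunit, had 1.76, 2.78 and 3.32 CPM and 2.19, 2.64 and 3.11 CPM (-0.06 ± 0.16, adjusted p = 0.878). Psmb9, another such subunit, had 2.07, 4.60 and 5.38 CPM and 2.75, 4.36 and 4.99 CPM (-0.05 ± 0.19, adjusted p = 0.914). The interval of Psmb9 ran from -0.48 to 0.38, so a sizeable change either way is not excluded. The WT range enclosed the Vps13c-cKO range for these 3 genes. It did not for Tap1, which had 6.06, 8.77 and 9.22 CPM in WT mice and 6.36, 8.12 and 11.4 CPM in Vps13c-cKO mice (0.002 ± 0.12).

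Levels between genes were compared per kilobase of annotated exon, as group means of CPM per kb. B2m was highest, at 187 in WT and 188 in Vps13c-cKO mice. Ifi27, Trim25, Iigp1 and Bst2 followed in WT mice at 12.8, 11.02, 10.95 and 10.2 per kb, and their ranges over the 6 WT mice overlapped. Ifit2 was at 6.10 in WT and 8.86 in Vps13c-cKO mice and Ifit3 at 4.82 and 8.06. Their group means stayed under those of the genes just named, which does not hold for every single mouse. The lowest level per kb was that of Mx1, at 0.188 in WT and 0.315 in Vps13c-cKO mice, with Cgas at 0.396 and 0.332 and Tmem173 at 1.71 and 1.54.

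Spread between mice of one group was compared with that of genes of similar level. The SD of log2(CPM + 1) within groups was a median of 1.92 times that of 200 genes of similar mean for the 6 GTPases and 1.62 times for the 4 antigen presentation genes, against 1.14 for the effectors and 1.09 for the sensors. The ratio was above 1 in 6 of 6 GTPases and in 3 of 4 antigen presentation genes, Psmb8 being under it at 0.853. WT mouse 5 was the highest WT mouse in 6 of 6 GTPase genes and in 19 of all 49 genes (38.8%), where it was highest in 15.9% of all tested genes. WT mouse 6 was the lowest in 4 of 4 antigen presentation genes and in 15 of 49 genes, against 18.1% of all tested genes. Among the Vps13c-cKO mice, mouse 6 was the lowest in 17 of 49 genes (34.7%, against 18.2% of all tested genes), 5 of the 8 sensors among them, and mice 4 and 5 were each the highest in 14 of 49 (28.6%). In 25 further GTPase and MHC class I genes outside the list, WT mouse 5 was highest in 16 and WT mouse 6 lowest in 14. Pearson correlations of log2 levels were taken as a description without a test, over pairs of genes that share libraries. For the 10 GTPase and antigen presentation genes the median was 0.71 over the 6 WT mice (pairs from 0.10 to 0.96). It was 0.29 over the 6 Vps13c-cKO mice (-0.23 to 0.90). For all 49 genes the medians were 0.17 and 0.13. For the 4 Ifit genes the medians were -0.03 (-0.84 to 0.62) and 0.38 (-0.02 to 0.95). With 6 mice per group, no difference in correlation between the groups is read from these values.

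**Figure D4:**
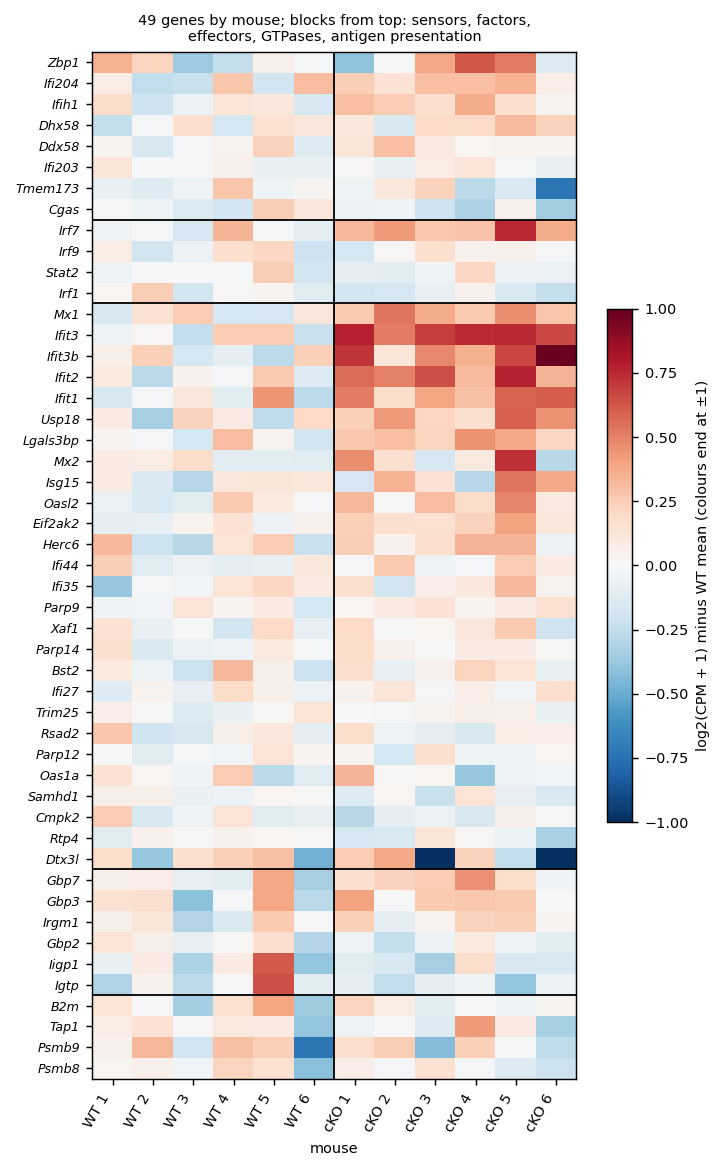
Level of each of the 49 genes in each of 12 mice as the difference of log2(CPM + 1) from the mean of the WT mice (colour, ending at ±1), with genes ordered by type. The GTPase rows run high in WT mouse 5 and the antigen presentation rows low in WT mouse 6, while the Ifit rows run high across the Vps13c-cKO mice.

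In Dtx3l, a ubiquitin ligase gene picked out after its values were seen, single mice stood low. The Vps13c-cKO mice held 27.0, 29.7, 8.61, 26.6, 18.8 and 7.20 CPM and the WT mice 25.6, 17.0, 25.2, 26.7, 27.8 and 15.8 CPM. Its partner Parp9, which shares 458 exon bases with it on the opposite strand, stayed between 20.9 and 26.4 CPM in all 12 mice.

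Few genes of the pathway outside the list changed. Of 103 tested genes among 128 listed ones 3 were called higher (2.91%, under the 5.65% of all tested genes), 1 was called lower, and the median log2 fold change was 0.01. The 3 were Psmb10, another immunoproteasome subunit (0.25 ± 0.07, adjusted p = 0.0211), Traf3, an adaptor of type I interferon induction (0.24 ± 0.07, adjusted p = 0.0314), and Sp110, a nuclear body gene (0.31 ± 0.10, adjusted p = 0.0497). With 1 mouse left out, Psmb10 was called in 10 of 12 fits (not without WT mouse 3 or Vps13c-cKO mouse 1), and Traf3 in 7 (not without WT mice 3 or 6 or Vps13c-cKO mice 3, 4 or 6). Sp110 was called in 3 such fits, those without WT mouse 3, Vps13c-cKO mouse 5 or Vps13c-cKO mouse 6, and the adjusted p of these 3 genes reached 0.0605, 0.0893 and 0.137. Nampt, the rate-limiting enzyme of NAD salvage, which interferon can induce, fell from 291 ± 21.0 to 254 ± 17.5 CPM (SD, n = 6), which gave -0.20 ± 0.05 on the log2 scale (adjusted p = 0.0113).

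Along the pathway, the interferon genes themselves were at 0 counts in all 12 libraries for 9 of 10 listed genes, and Ifnk had 1 count in each group. A count of 0 over the 6 libraries of a group allows up to 0.0354 CPM in WT and 0.0373 CPM in Vps13c-cKO mice. These limits cover counting error only, not reads that the counting lost because they fit several genes. Among 13 tested genes of the interferon receptors and the JAK-STAT pathway 0 were called, where 10.7% of all tested genes were. Among adaptors and kinases, Mavs had a log2 fold change of -0.01 ± 0.04, Tbk1 of 0.03 ± 0.06 and Irf3 of -0.09 ± 0.08, and Traf3 was the 1 of 16 called.

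The lists of STING traffic and turnover (8 tested), nucleic acid clearance (6 tested) and NF-kB targets and cytokines (9 tested) each held 0 called genes. These lists are too short to be told apart from the 10.7% of all tested genes called. Without Vps13c-cKO mouse 3, however, Enpp1, the enzyme that breaks down cGAMP outside cells, was called at a log2 fold change of 0.50 (adjusted p = 0.0476), against 0.29 ± 0.25 with all mice. Trex1, the exonuclease that removes cytosolic DNA, was listed at 0 in all 12 libraries. Its exons lie wholly inside those of Atrip on the same strand, so its reads cannot be assigned to 1 gene and the 0 is not read as a level. Oas3 and Cxcl10, picked after their counts were seen, stayed under the filter, with 15 counts over the WT and 44 over the Vps13c-cKO mice for Oas3 and 8 and 24 for Cxcl10. Other genes under the filter had fewer counts in the Vps13c-cKO mice, with 40 over the WT and 18 over the Vps13c-cKO mice for Il1b, 9 and 0 for Il6, 17 and 9 for Tnf, 48 and 33 for Ccl7, and 24 and 17 for Gbp8. None of these genes was tested in the main fit. Oas3 was called higher in the edgeR fit without the filter (adjusted p = 0.0418) and with DESeq2 (adjusted p = 0.0449).

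Some markers of other cells also differed between the genotypes. Of all tested genes 5.65% were called higher and 5.1% lower, and 1 call in a short list cannot be told apart from these shares. Of 10 macrophage markers 4 were called higher and 0 lower, with summed levels of 280 to 396 CPM in WT and 345 to 417 CPM in Vps13c-cKO mice. The 4 were Lyz2, C1qa, C1qb and C1qc, whose products are lysozyme and the chains of complement C1q. Of the 10 markers 9 had a positive log2 fold change, and Cd163 had -0.14 ± 0.15 (adjusted p = 0.634). Fibroblast markers were called higher in 3 of 6 genes, with sums of 792 to 904 and 899 to 993 CPM. Common leukocyte markers were called in 1 of 4, with sums of 25.3 to 36.8 and 31.5 to 39.2 CPM, and summed dendritic cell markers were at 0.949 to 1.63 and 1.61 to 2.75 CPM. Of 5 dendritic cell markers only Itgax passed the filter, and it was called higher, but it passed through the Vps13c-cKO group, so its call is no support for the list. The counts over the WT and the Vps13c-cKO mice were 43 and 102 for Itgax, 29 and 18 for Siglech, and 11 and 12 for Xcr1. Markers of T and NK cells summed to 0.920 to 2.80 and 1.51 to 3.23 CPM, those of B cells to 1.30 to 2.30 and 1.48 to 2.48 CPM, and those of monocytes and neutrophils to 2.99 to 5.85 and 5.06 to 7.60 CPM. Only 1 of 8, 0 of 4 and 2 of 7 markers of these lists were tested, and 0 of the tested ones were called. Defining markers such as Cd3e, with 6 and 9 counts over the groups, and Ly6g, with 0 and 1, were near 0, though no marker of any list was at 0 in all 12 libraries. Of endothelial markers 1 of 8 was called, Cldn5, lower by a log2 fold change of -0.62, and of cardiomyocyte markers 3 of 7 were called lower. In smooth muscle and pericyte markers 1 of 5 was called higher and 2 lower, and in erythroid markers 0 of 4. Their part in the higher Ifit, Irf7, Eif2ak2 and Lgals3bp values was not tested.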

How the data were processed

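The authors deposited raw, unnormalized read counts, one whole number for each gene in each library, per the file headers. The tools in the submitters' processing notes are fastp 0.22.0, HISAT2 2.1.0 and HTSeq 0.9.1, with GRCm39 as the build. No annotation release or strand setting is stated there. Libraries were made from poly-T captured RNA and amplified by PCR, with no molecular identifiers mentioned, per the labels' protocols, so counts are reads and the limits given for a count of 0 cover counting error only. Groups came from the sample titles, and 0 columns went unused. Gene names, exon lengths and gene order came from GENCODE M21 (GRCm38), another build, so no gene coordinates are given, and promoter letters came from RefSeq windows of GRCm38.p6.

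The main test was edgeR 4.0.16 (R 4.3.3): a quasi-likelihood F test, two-sided, with TMM factors, filterByExpr and Benjamini-Hochberg values over 12384 genes. Calls were made under 0.05. Intervals are 95% intervals of the log2 fold change, which include the spread between mice. Their SE was taken from the F statistic and their t value from these mice alone. The test also draws on the spread of other genes, so intervals are wider than the test implies. For Ifi204 the interval ran from -0.001 to 0.50 at an unadjusted p of 0.0377 by that test. On simulated counts over 12316 genes, with depths and spread taken from these libraries, 60% of changes of 1.25-fold were recovered and 92% of changes of 2-fold. The simulation gave 177 called genes, 11 of them false, against 1331 called in the data, so these rates need not carry over. The p-values set the difference between groups against the spread between mice, which are taken as independent. Nothing in the labels gives litters or cages, so that could not be checked. Alternatives were DESeq2 1.42.0, its size factors in edgeR, no filter, limma-voom (limma 3.58.1), a replicate block and leaving out each mouse.

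The members and lists were chosen with earlier results of these data known. Genes described with values are the 7 called, a set of 12 taken whatever their values, and in each type the 2 with the smallest p and the 1 with the highest mean CPM. Dhx58, Zbp1, Irf9 and Tap1 complete their types. The values of 1 pathway gene are not reported here.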

Additional observations from a re-analysis of the deposited data

Results flagged for a closer look

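Of 98 groups of 6 mice, 1 for each gene and genotype, 8 held a mouse far from the others by Dixon's criterion, where chance gives about 1 in 20. For Irf7 this was the case in both groups, with WT mouse 4 at 10.4 CPM, next to 7.94, and Vps13c-cKO mouse 5 at 14.2 CPM, next to 11.1. Tmem173 was high in WT mouse 4, at 5.85 CPM next to 4.75, and Igtp in WT mouse 5, at 18.7 CPM next to 12.0. Ddx58 was high in Vps13c-cKO mouse 2, at 22.7 CPM next to 19.95, and Stat2 in Vps13c-cKO mouse 4, at 24.8 CPM next to 20.8. Rtp4 was low in WT mouse 1, at 7.04 CPM next to 7.74, and Tap1 in WT mouse 6, at 6.06 CPM next to 8.25.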

How the results depend on the processing

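The same 7 genes were called higher, and 0 lower, with DESeq2 size factors, without the filter, with DESeq2 and with the replicate block, and limma-voom added Mx1 (0.77, adjusted p = 0.0407). With 1 mouse left out the count was 6 to 8, and Ifit1, Ifit2, Ifit3, Ifit3b, Irf7 and Lgals3bp were called in all 12 such fits. Of the pathway genes outside the list, 2 were called lower without the filter and with DESeq2, which added Pdia3, and 1 to 2 with 1 mouse left out, while 1 to 3 were called higher (1 without WT mouse 3, WT mouse 6, Vps13c-cKO mouse 1 or Vps13c-cKO mouse 4). Without the filter and with DESeq2, Oas3 took the place of Sp110. Called genes in all numbered 1331, between 1312 and 1410 in those settings and between 1065 and 1397 with 1 mouse left out. Signs near 0 turned without the filter for B2m (-0.0033) and Trim25 (-0.0015). With 1 mouse left out the log2 fold change ran from -0.0641 to 0.0919 for B2m, -0.0216 to 0.0313 for Trim25, -0.188 to 0.0432 for Psmb9, -0.155 to 0.0026 for Psmb8, -0.0874 to 0.0250 for Stat2 and -0.0171 to 0.0343 for Ifi203. Other uncalled values kept their sign but moved by over 1.5 times, among them Tmem173 (-0.25 to -0.02), Cgas (-0.33 to -0.17), Ddx58 (0.05 to 0.15), Isg15 (0.15 to 0.36), Bst2 (0.02 to 0.14), Irf1 (-0.19 to -0.09), Gbp3 (0.11 to 0.28), Gbp7 (0.14 to 0.30) and Iigp1 (-0.24 to -0.01). The causes were not tested.

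The replicate numbers were not found to pair the mice: the correlation of same-numbered deviations ran from -0.0396 to 0.0618, and 1 of 6 pairs was above the highest other pair. With the replicate block the list kept its 7 calls, and of the other pathway genes 2 were called higher (Psmb10 and Gbp6) and 2 lower (Nampt and Sp100). Low counts limit the precision of genes such as Cgas, with 14 to 33 reads per library, and Zbp1, with 6 to 25.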
